A study of Mus musculus with 2 samples.

Results

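The methionine and one-carbon cycle was followed through 10 listed genes, found by gene symbol in the platform's probe annotation. The list was chosen with earlier results of these data known. Of the 10 genes, 7 had a named probe set among the 15644 named genes of the table: Mat1a, Gnmt, Cbs, Cth, Shmt1, Shmt2 and Mthfd1. Mat2a, Ahcy and Bhmt were not analysed here. The question was how the levels of these genes in primary mouse hepatocytes, the parenchymal cells of the liver kept in culture, differ after pregnenolone 16α-carbonitrile (PCN), a steroid that activates the pregnane X receptor of rodents.

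The PCN group was hepatocytes given 10 µmol/l PCN for 12 h, and the DMSO group was hepatocytes given the solvent dimethyl sulfoxide for the same time. Both groups came from cells of a male C57BL/6 mouse aged 9 weeks, held in culture for 24 h before treatment, with no genetic change named in the labels. RNA of 3 samples was pooled in each group and put on 1 Affymetrix array, so that every value below is that of 1 array, without an error or a test. "Higher" and "lower" describe these arrays alone.

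The methionine cycle makes S-adenosylmethionine, the methyl donor of most methyltransferases, and recovers methionine from the homocysteine that is left. The liver is a major site of this cycle, and it can also send homocysteine into transsulfuration, which makes cysteine and from it glutathione, taurine and sulfate. The folate cycle carries one-carbon units, taken mainly from serine, to methionine, purine and thymidylate synthesis.

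A log2 intensity of 5 (32 on the linear scale) served as a floor, and all 7 genes lay above it in both arrays. With PCN, 4 of them were higher and 3 lower, against 57.6% higher and 42.4% lower among the 6449 genes of the series that reached the floor in at least 1 array. None of the 7 differed by 1.5-fold or more in either direction, a size reached by 1.94% of measured genes. With a loess trend removed 1 of the 7, Cbs, passed 1.5-fold, but the share over all genes was not computed there. At 1.2-fold or more, 2 of the 7 were lower with PCN, where 8.95% of measured genes were, and 0 were higher, where 9.06% were. Their median log2 difference was 0.05, against 0.03 over all measured genes. The quartiles of all measured genes were -0.09 and 0.14. Shmt2, Mthfd1, Gnmt and Cth lay between them, Mat1a above them, and Shmt1 and Cbs below them, with Cbs near the lower end.

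**Figure D1:**
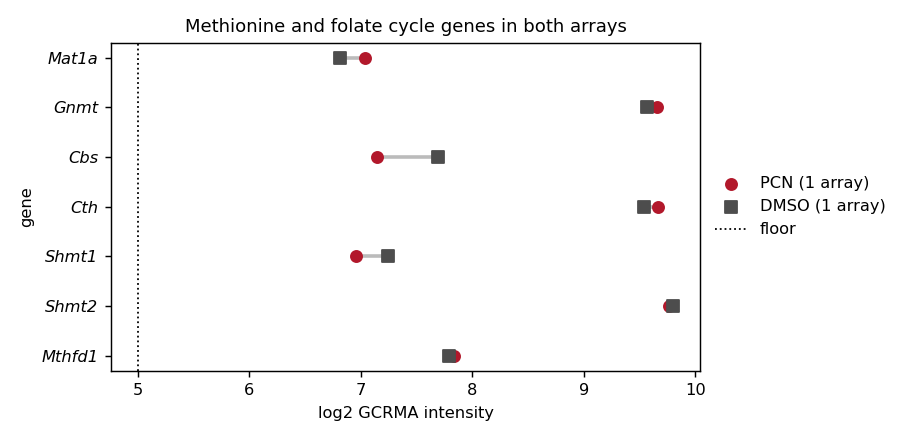
Log2 GCRMA intensity of the 7 genes in the PCN array (circles) and the DMSO array (squares), with the floor of 5 as a dotted line. The line between the symbols is widest for Cbs, whose PCN value lies left of its DMSO value. Positions of different genes come from different probe sets and are not compared with each other.

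The synthesis and use of S-adenosylmethionine came first in the cycle. Mat1a encodes the methionine adenosyltransferase of adult liver, which makes S-adenosylmethionine. Its intensity was 131 with PCN and 113 with DMSO, a log2 difference of 0.22 (1.17-fold higher). This was the highest difference of the 7, at rank 859 of 6449 measured genes counted from the highest. Gnmt encodes glycine N-methyltransferase, an abundant liver enzyme that passes the methyl group of S-adenosylmethionine to glycine and so disposes of an excess. It had an intensity of 805 with PCN and 758 with DMSO, a log2 difference of 0.09. That difference is smaller than the SD of 0.11 over 40 bacterial and phage control probe sets, which are added from outside and so leave out the spread between cultures. The control probe sets ran from -0.33 to 0.16, so that Mat1a lay just above their range, Shmt1 inside it and Cbs below it.

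Cbs and Cth encode the enzymes of transsulfuration, both of which use vitamin B6. Cbs, cystathionine β-synthase, joins homocysteine to serine and so takes it out of the methionine cycle. Its intensity was 141 with PCN and 206 with DMSO, a log2 difference of -0.55 (1.46-fold lower). This was the lowest of the 7 differences, and it ranked 99 of 6449 measured genes counted from the lowest. All 7 genes had a mean intensity between 100 and 1000, and Cbs ranked 43 from the lowest among the 3375 measured genes of that class, of which the central 95% ran from -0.46 to 0.40. Cth, cystathionine γ-lyase, releases cysteine in the next step, and its intensity was 810 with PCN and 744 with DMSO. Its log2 difference of 0.12 lay within the range of the control probe sets. The log2 difference of Cbs minus that of Cth was -0.67.

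Serine hydroxymethyltransferases take a one-carbon unit from serine and leave glycine, Shmt1 in the cytosol and Shmt2 in mitochondria. Shmt1 had an intensity of 124 with PCN and 151 with DMSO, a log2 difference of -0.28 (1.22-fold lower), at rank 512 of 6449 from the lowest. Shmt2 had 870 with PCN and 892 with DMSO, a log2 difference of -0.04. The cytosolic gene was thus lower with PCN by more than the mitochondrial one, and the log2 difference of Shmt1 minus that of Shmt2 was -0.25. Mthfd1, a cytosolic enzyme that interconverts the folate-bound one-carbon units, had 228 with PCN and 221 with DMSO, a log2 difference of 0.05 that turned to -0.0002 with the loess trend removed.

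**Figure D2:**
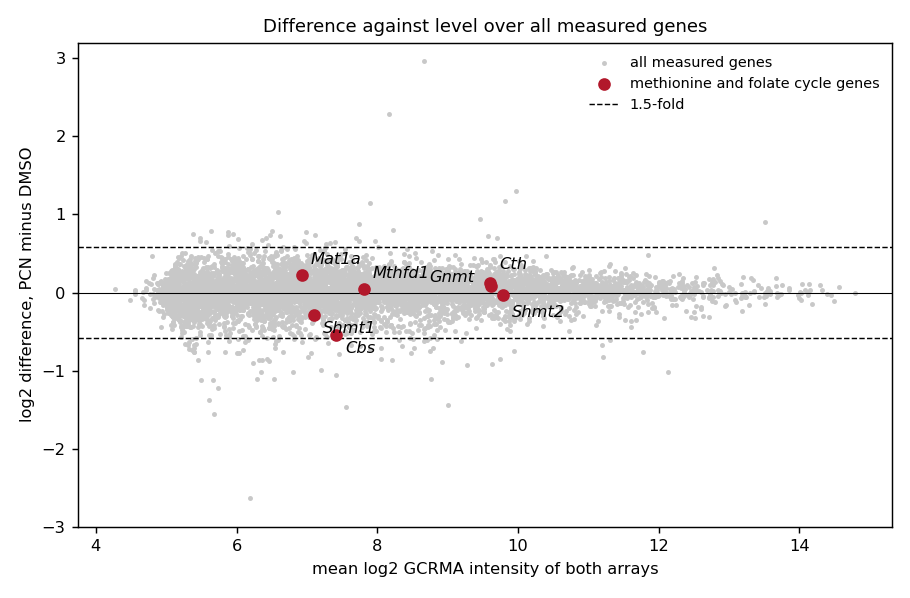
Log2 difference (PCN minus DMSO) of each measured gene (grey) against its mean log2 intensity over both arrays, with the 7 methionine and folate cycle genes in red and 1.5-fold marked by dashed lines. Cbs lies just inside the lower dashed line at -0.55 and Shmt1 at -0.28, and the other 5 lie between -0.04 and 0.22.

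Promoter windows of RefSeq (build GRCm38.p6, 250 bases before to 50 after the start site) matched 5 of the 7 genes. The windows of Cbs and Shmt1 are shown because these genes had the lowest differences, and that of Shmt2 because it is the mitochondrial counterpart of Shmt1. Cbs lies at chr17:31637156-31637455, Shmt1 at chr11:60811216-60811515 and Shmt2 at chr10:127522395-127522694, all on the minus strand and written 5′ to 3′ along the gene. Capitals mark the GC box GGGCGG and the CCAAT box CCAAT on either strand.
Cbs: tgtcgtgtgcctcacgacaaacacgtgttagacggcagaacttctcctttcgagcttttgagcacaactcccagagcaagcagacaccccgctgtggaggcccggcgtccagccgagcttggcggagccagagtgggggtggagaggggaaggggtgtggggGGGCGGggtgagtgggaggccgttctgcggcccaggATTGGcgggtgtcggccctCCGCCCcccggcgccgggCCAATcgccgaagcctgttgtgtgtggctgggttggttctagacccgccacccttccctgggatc
Shmt1: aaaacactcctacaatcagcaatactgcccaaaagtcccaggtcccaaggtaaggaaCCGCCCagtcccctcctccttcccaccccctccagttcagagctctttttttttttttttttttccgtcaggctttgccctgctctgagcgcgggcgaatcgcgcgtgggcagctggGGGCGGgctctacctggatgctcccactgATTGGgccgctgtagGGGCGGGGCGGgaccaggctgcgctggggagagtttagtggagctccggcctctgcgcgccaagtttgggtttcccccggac
Shmt2: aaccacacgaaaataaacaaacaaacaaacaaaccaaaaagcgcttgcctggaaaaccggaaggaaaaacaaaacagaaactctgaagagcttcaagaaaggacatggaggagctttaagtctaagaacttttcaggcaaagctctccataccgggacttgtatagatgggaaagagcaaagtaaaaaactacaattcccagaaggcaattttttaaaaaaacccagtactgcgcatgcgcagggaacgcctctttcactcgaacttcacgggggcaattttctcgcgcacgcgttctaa

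The Cbs window held 2 GC boxes, which begin at -88 and -33 from the start site, and 2 CCAAT boxes, at -52 and -15. The Shmt1 window held 4 GC boxes, of which those at -32 and -27 share a base, and 1 CCAAT box at -47. The Shmt2 window held neither motif. Among the other windows, that of Mthfd1 had 1 of each and that of Gnmt had 1 CCAAT box. Of all 32851 windows in the table, 35.7% held a GC box and 37.4% a CCAAT box, so both are common letters in promoters. The half-site AGTTCA, which several nuclear receptors including the pregnane X receptor can use, was found in 1 of the 5 windows, that of Shmt1 at -160, and in 14.0% of all windows. The letters TTGCNNAA of C/EBP factors (10.8% of all windows) and TATAAA of the TATA box (13.6%) were found in none of the 5. Both strands were searched for each motif, and no match of one motif overlapped one of another. G and C made up 66.7% of the bases for Cbs, 60.7% for Shmt1 and 42.7% for Shmt2, around a median of 52.7% over all windows.

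Around the 7 genes, 8 lists held 100 gene symbols, of which 84 were named in the table and 66 were measured. The lists covered neighbouring steps and, apart from these, targets of the stress-induced transcription factor ATF4. With PCN, 29 of the 66 were higher and 37 lower, against 57.6% higher and 42.4% lower among all measured genes. The same shares are the baseline for the counts of each list below. Of the 66, 4 differed by 1.5-fold or more, all lower with PCN, where 1.30% of all measured genes were lower by that much. Of these 4, 3 belong to the steps that use up cysteine, downstream of Cbs and Cth.

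The list of sulfur steps after transsulfuration had 11 measured genes, 2 higher and 9 lower with PCN, with a median log2 difference of -0.14 against 0.03 over all measured genes. Cdo1, cysteine dioxygenase, starts the breakdown of cysteine to taurine and sulfate. It had an intensity of 1768 with PCN and 3144 with DMSO, a log2 difference of -0.83 (1.78-fold lower), and ranked 29 of 6449 from the lowest. Csad, the decarboxylase that leads from there to taurine, had 157 with PCN and 251 with DMSO, a log2 difference of -0.68 (1.60-fold lower). Suox, sulfite oxidase, which ends the branch to sulfate, had 57.5 with PCN and 86.6 with DMSO, a log2 difference of -0.59 (1.51-fold lower). Suox was dim, and its difference was -0.44 with a floor of 6.

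The glutathione branch of the same list showed smaller differences. Gclc, the catalytic subunit of the rate-limiting enzyme of glutathione synthesis, had 7510 with PCN and 8378 with DMSO, a log2 difference of -0.16. Oplah, which returns 5-oxoproline from glutathione breakdown to glutamate, had 120 with PCN and 154 with DMSO, a log2 difference of -0.36. The log2 difference of Cdo1 minus that of Gclc was -0.67.

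**Figure D3:**
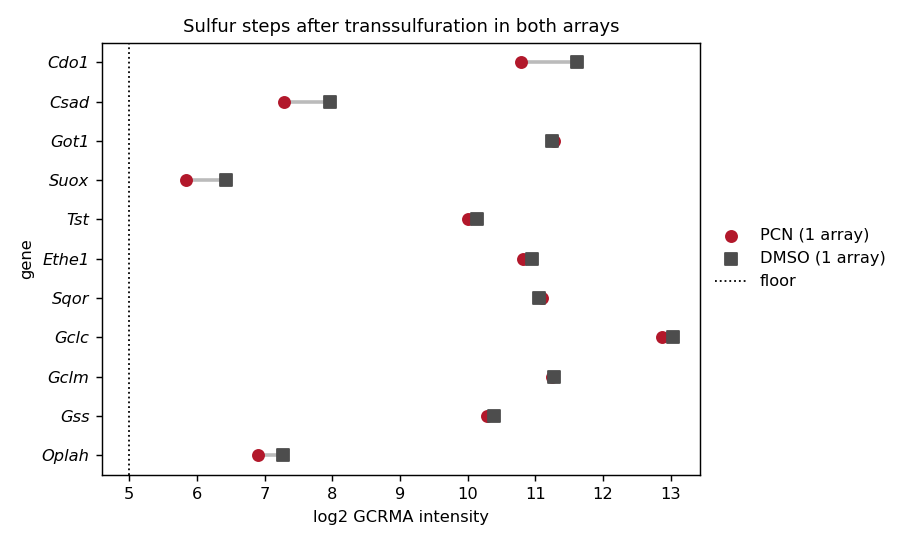
Log2 GCRMA intensity of the 11 measured genes of the sulfur steps in the PCN array (circles) and the DMSO array (squares), with the floor of 5 as a dotted line. The PCN circle lies left of the DMSO square in 9 of the 11 genes and farthest from it for Cdo1, Csad and Suox. Positions of different genes are not compared.

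Other enzymes of the methionine cycle and of methyl transfer were lower with PCN in 6 of 10 measured genes, with a median log2 difference of -0.13 and none past 1.5-fold. Bhmt2, which methylates homocysteine with S-methylmethionine, had an intensity of 160 with PCN and 228 with DMSO, a log2 difference of -0.51 (1.43-fold lower). Tpmt, thiopurine methyltransferase, had 235 with PCN and 333 with DMSO, a log2 difference of -0.50 (1.42-fold lower). Adk, adenosine kinase, removes the adenosine that the hydrolysis of S-adenosylhomocysteine sets free. It had 3124 with PCN and 3796 with DMSO, a log2 difference of -0.28.

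On the other side of 0, Icmt, which methylates prenylated proteins, differed by 0.26, and Pcmt1, a methyltransferase that repairs damaged aspartyl residues of proteins, by 0.22. Mat2b, the regulatory subunit of the enzyme that Mat2a encodes, had 263 with PCN and 285 with DMSO, a log2 difference of -0.12. Mtr, the cobalamin-dependent methionine synthase that links both cycles, was under the floor in both arrays, with 12.4 with PCN and 11.9 with DMSO, so that no difference is given.

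Folate enzymes and carriers outside the 7 genes were divided, with 6 of 11 measured genes higher and 5 lower with PCN and a median of 0.10, which was 0.15 with a floor of 4 and 0.007 with a floor of 6. Slc19a1, the reduced folate carrier, had an intensity of 64.95 with PCN and 48.6 with DMSO, a log2 difference of 0.42 (1.34-fold higher), which shrank to 0.02 with a floor of 6. Fpgs, which adds the glutamate tail that keeps folate in cells, had 284 with PCN and 226 with DMSO, a log2 difference of 0.33. Mthfd1l, the mitochondrial enzyme that releases formate, had 197 with PCN and 165 with DMSO, a log2 difference of 0.25, while its partner Mthfd2 differed by -0.04.

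Ftcd and Mtfmt had the largest differences in the other direction. Ftcd, which passes a one-carbon unit from histidine breakdown to folate, had 1359 with PCN and 1745 with DMSO, a log2 difference of -0.36 (1.28-fold lower). Mtfmt, which formylates the initiator methionyl-tRNA of mitochondria, had 79.6 with PCN and 99.7 with DMSO, a log2 difference of -0.32.

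Sarcosine, the product of Gnmt, and glycine, the product of Shmt1 and Shmt2, are broken down in mitochondria and peroxisomes. The list of these steps also took in choline and betaine oxidation and the conjugation of glycine. Of its 7 measured genes, 4 were lower and 3 higher with PCN, with a median of -0.22 and none past 1.5-fold. Pipox, a peroxisomal oxidase of sarcosine and pipecolate, had an intensity of 390 with PCN and 545 with DMSO, a log2 difference of -0.48 (1.40-fold lower). Sardh, sarcosine dehydrogenase, named after its value was seen, had 51.9 with PCN and 50.03 with DMSO, a log2 difference of 0.05. Glyat, which conjugates glycine to acyl groups, differed by -0.30, Dmgdh, dimethylglycine dehydrogenase, by -0.25, and Gldc, the glycine decarboxylase of the cleavage system, by -0.22. Dld, the dehydrogenase that this system shares with other complexes, differed by 0.11.

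Serine synthesis showed little difference. Phgdh, Psph and Psat1, the enzymes that make serine from a glycolytic intermediate, differed by 0.02, 0.04 and 0.07, all within the SD of the control probe sets. Glyctk, glycerate kinase, had an intensity of 127 with PCN and 159 with DMSO, a log2 difference of -0.32. Of the 4 measured genes of this list, 3 were higher and 1 lower.

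Cobalamin is the cofactor of methionine synthase in the cytosol and of methylmalonyl-CoA mutase in mitochondria. Its list had 6 measured genes, 3 higher and 3 lower. Mmaa, a mitochondrial protein that loads cobalamin onto the mutase, had an intensity of 50.02 with PCN and 85.6 with DMSO, a log2 difference of -0.77 (1.71-fold lower), which shrank to -0.42 with a floor of 6. Mmachc, which processes cobalamin in the cytosol, had 86.5 with PCN and 61.8 with DMSO, a log2 difference of 0.49 (1.40-fold higher). Tcn2, the blood carrier of cobalamin, had 409 with PCN and 512 with DMSO, a log2 difference of -0.32. Mmadhc, which directs cobalamin to either enzyme, differed by -0.08, and Lmbrd1, which exports it from lysosomes, by 0.11.

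**Figure D4:**
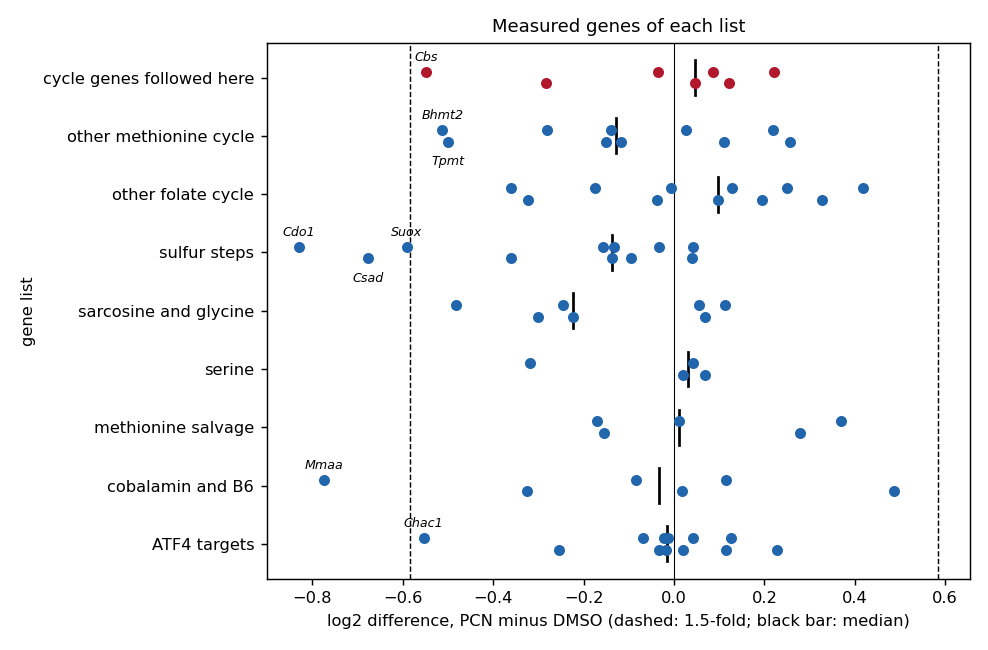
Log2 difference (PCN minus DMSO) of every measured gene by list, with the 7 genes followed here in red, the other lists in blue, a black bar at each list's median and 1.5-fold as dashed lines. The only points past 1.5-fold are Cdo1, Csad and Suox among the sulfur steps and Mmaa among the cobalamin genes, all lower with PCN.

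The identity of the cells was checked with markers. Of 9 named hepatocyte markers, 8 reached the floor, with log2 differences from -0.21 to 0.07 and a median of -0.02. Alb, albumin, had an intensity of 21383 with PCN and 21685 with DMSO, while Tat, tyrosine aminotransferase, was under the floor in both arrays. Of 32 markers of stellate, immune, endothelial and bile duct cells, 23 were under the floor in both arrays, among them Col1a1, Ptprc, Cdh5 and Epcam. The other 9 were measured and are named below.

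The 32 markers fell into 4 lists, and each summed intensity takes in all named markers of a list, also those under the floor. The sum was 405 with PCN and 452 with DMSO for stellate cell and fibroblast markers, where 2 of 10 were measured. These were Dcn, with 313 with PCN and 351 with DMSO, and Acta2, which was under the floor with PCN. For Kupffer cell and leukocyte markers the sum was 3484 with PCN and 3366 with DMSO, where 2 of 9 were measured, Cd68 and Cd14. For endothelial markers it was 181 with PCN and 162 with DMSO, where 3 of 8 were measured, Stab2, Eng and Lyve1. Eng and Lyve1 were under the floor with DMSO. For bile duct markers the sum was 333 with PCN and 310 with DMSO, where 2 of 5 were measured. Those 2 lay on opposite sides of 0: Sox9 had 95.2 with PCN and 127 with DMSO, a log2 difference of -0.42, and Krt19 had 223 with PCN and 169 with DMSO, a log2 difference of 0.40. The part of these other cells in the differences above was not tested. In pooled RNA of a culture, fewer cells of a type and less RNA per cell cannot be told apart.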

How the data were processed

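RNA of primary hepatocytes was measured on 2 one-colour arrays, 1 per group, each made, per the labels' protocols, from 5 µg of RNA that combined 3 samples. The deposited intensities are linear and were made with GCRMA, which the submitters' processing notes give as version 2.2.0. It corrects background, normalizes arrays to each other and summarises each probe set. For the build and the probe set definition, the sources used here state nothing. Precision is limited by the number of arrays. Of 16395 probe sets, 64 were controls and 687 were unnamed here. No gene had several probe sets. All 7 genes followed here matched RefSeq by Entrez number with the same symbol.

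Log2 values were computed from the deposited intensities in pandas 2.3.3 and numpy 2.4.6 under Python 3.11.15, and differences were taken as PCN minus DMSO. Genes under a log2 floor of 5 in both arrays counted as not measured, and a value under it in 1 array was raised to it. The floor is a choice and not a measured background. Size thresholds were 1.5-fold and 1.2-fold. No test was run on 1 array per group, and batch and treatment cannot be told apart. These intensities do not separate a gene from what its probe set may read of a relative, such as Shmt1 and Shmt2 or Bhmt2 and Bhmt.

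The members, lists, floor and thresholds were chosen with earlier results of these data known. The text names all 7 genes, the 5 measured genes of each pathway list with the largest difference, any past 1.5-fold and a few direct partners. Sardh, Atf4 and the cell markers named were chosen after their values were seen. The steps were run on simulated data with large known shifts and little noise, which checks the code and not the reliability of these differences. Alternatives were floors of 4 and 6, no floor, quantile normalization, median centring, a loess trend removed (statsmodels 0.14.6, fraction 0.3) and thresholds of 1.2-fold and 2-fold.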

Additional observations from a re-analysis of the deposited data

How the results depend on the processing

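The alternatives are marked as planned, but the floor and thresholds that they vary were chosen with earlier results of these data known. Of 42 values of the 7 genes under the 6 alternatives of floor and scaling, all 42 lay within the SD of the control probe sets, 0.11, from the reported value. Much of this was fixed in advance. All 7 genes lay above a log2 value of 6 in both arrays, so changes of floor could not move them. Median centring shifts every gene by the same amount. Only quantile normalization and the loess trend could move the genes by different amounts. Cbs ranged from -0.60 to -0.55 and Shmt1 from -0.33 to -0.28. The count of these genes past 1.5-fold was 1 in place of 0 with the loess trend removed and 0 at 2-fold, while at 1.2-fold the count was 2. Of the 66 measured genes of the 8 lists, 4 passed 1.5-fold, where 1.94% of all measured genes did. The count was 5 with median centring, where Chac1 was the added gene, and 2 with a floor of 6. At 1.2-fold 20 passed, where 9.06% of all measured genes were higher and 8.95% lower by that much, and 0 passed 2-fold. Shares over all measured genes were not computed for 2-fold, median centring, the loess trend removed or the floor of 6. Those counts have no baseline. The folate median was 0.10, with a range of 0.007 to 0.15, and the cobalamin median was -0.03 and stood at -0.20 with a floor of 6, which leaves fewer genes. Medians near 0 turned sign for the 7 genes, the ATF4, serine and salvage lists, with ranges of -0.0002 to 0.05, -0.05 to 0.003, -0.01 to 0.03 and -0.04 to 0.01. No scaling moved the median of all measured genes by over 0.1. With 1 array per group no replicate could be left out. No paired analysis was possible because the groups hold a single array each. Suox, Mmaa, Mmachc, Lmbrd1, Sardh, Slc19a1, Chac1 and Mtr are limited by low signal.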

Other observations

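The salvage of methionine from methylthioadenosine, a by-product of polyamine synthesis, was measured in all 5 listed genes, 3 higher and 2 lower with PCN, with a median log2 difference of 0.01. Enoph1 had an intensity of 147 with PCN and 114 with DMSO, a log2 difference of 0.37 (1.29-fold higher). Mtap, the phosphorylase that starts the salvage, had 665 with PCN and 548 with DMSO, a log2 difference of 0.28 (1.21-fold higher). Apip, Adi1 and Mri1, other enzymes of this salvage, differed by 0.01, -0.15 and -0.17.

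ATF4 is a stress-induced transcription factor that can raise serine and one-carbon genes. Of 12 measured genes of its list, 5 were higher and 7 lower with PCN, with a median of -0.02. Chac1, which breaks down glutathione, had an intensity of 57.1 with PCN and 83.9 with DMSO, a log2 difference of -0.55 (1.47-fold lower), which shrank to -0.39 with a floor of 6 and passed 1.5-fold at -0.59 with median centring. Atf5, a related transcription factor, differed by -0.25. Vldlr, a lipoprotein receptor, Cebpb, a transcription factor, and Slc3a2, a subunit of amino acid transporters, differed by 0.23, 0.13 and 0.12. Atf4 itself, named after its value was seen, had 1187 with PCN and 1202 with DMSO.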
